A study of Mus musculus with 5 samples.

Results

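The genes examined encode the subunits of voltage-gated sodium channels, voltage-gated calcium channels, and hyperpolarization-activated cyclic nucleotide-gated (HCN) channels, and their expression was measured by bulk RNA-seq in mouse sympathetic neurons sorted at E14.5. The members were all protein-coding genes of the count table with a symbol that starts with *Scn* and a digit, *Cacna1*, *Cacna2d*, *Cacnb*, *Cacng*, or *Hcn* and a digit. The rule found 36 genes of the 20224 in the table. Another 8 genes of these families in the annotation were not analysed here. Of the 36 members, 28 passed the filter on low counts and were tested.

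The study deleted *Hif1a*, the oxygen-regulated subunit of the transcription factor HIF-1, in the sympathetic lineage with Cre expressed from the *Isl1* locus. Sympathetic ganglia of non-diabetic pregnancies were dissociated, and 100 cells positive for both eGFP and tdTomato were sorted for each library. The 3 *Hif1aCKO* libraries (replicates 3, 4, and 5) carried 2 floxed *Hif1a* alleles with loxP sites around exon 2, the *Isl1-Cre* knock-in, the Cre-dependent tdTomatoAi14 reporter, and the *Prph-eGFP* reporter. The 2 control libraries (replicates 5 and 6) carried the same reporters. The paper describes the sorted controls as *Hif1a loxP/+* with *Isl1-Cre*, so that Cre and the knock-in at *Isl1* were shared by both groups, whereas the GEO labels describe controls without *Isl1-Cre*. The tdTomato reporter needs Cre, and every library was sorted for tdTomato, which goes with the paper's description. *Isl1* itself was lower in *Hif1aCKO* without overlap, with values given below, and the genotype of the controls was not tested. By the paper's description the controls kept an unfloxed *Hif1a* allele. The floxed line was on a mixed C57BL/6J and C57BL/6N background and the Cre line on FVB. The labels call each library a biological sample but do not say how many embryos each held, and p-values measure the spread between these 5 samples only.

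Sodium channel alpha subunits form the pore that carries the upstroke of the action potential, and beta subunits shape their gating and their placement in the membrane. Calcium channel alpha-1 subunits form the pore that admits calcium on depolarization, for example for transmitter release at varicosities, and the alpha-2/delta and beta subunits bring them to the surface and tune their gating. HCN channels open on hyperpolarization and carry an inward current that sets resting potential and rhythm. In sympathetic neurons, N-type calcium channels are known for noradrenaline release, and the tetrodotoxin-sensitive sodium channels for spiking.

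Total counts ranged from 8254211 to 9700887 per library. All 13 sympathetic neuron markers in the list were in the table, and their summed level was 11450 and 13801 CPM (counts scaled to a common library size) in the controls and 9858 to 10268 in the *Hif1aCKO* libraries, without overlap. Of these markers, 9 were below and 4 above 0 in fitted log2 fold change, with a median of -0.30. Without overlap, 7 were lower and 1, *Hand2* at 0.59 ± 0.18, was higher. Of all genes tested, 12.9% were lower and 12.8% higher without overlap. In either direction, 7 markers (53.8%) had an unadjusted p under 0.05 by edgeR quasi-likelihood, against 7.67% of all genes tested. The summed level of 12 G2/M phase genes was 2125 and 2358 CPM in the controls and 3139 to 4068 in the *Hif1aCKO* libraries, also without overlap. The library of *Hif1aCKO* replicate 3 stood apart in Schwann cell precursor genes. The 4 markers of that type in the table, of 7 listed, summed to 130.5 CPM there and to 3.49 to 6.30 in the other libraries. Most of this came from *Fabp7*, a glial fatty acid binding protein, with 926 counts in *Hif1aCKO* replicate 3, 9 in *Hif1aCKO* replicate 5, and 0 in the other libraries, while *Sox10* had 8 counts in *Hif1aCKO* replicate 3 and at most 1 elsewhere. The listed markers of sensory neurons summed to 5.26 to 11.1 CPM, of mesenchyme to 0.317 to 2.78, and of skeletal muscle to 6.35 to 11.5, with overlapping genotypes. Other low sums did not overlap. Endothelial markers summed to 2.50 and 4.34 CPM in the controls and 0.122 to 2.22 in *Hif1aCKO*, and the chromaffin gene *Pnmt* to 3.33 and 5.82 against 0.342 to 2.08. In the other direction, the erythroid gene *Alas2* had 0.951 and 1.59 against 1.71 to 3.53, and cardiac muscle markers 0.119 and 0.741 against 0.856 to 1.59. Motor neuron markers summed to 72.3 and 102.8 in the controls and 32.5 to 59.9 in the *Hif1aCKO* libraries, mostly from *Slc18a3*, the vesicular acetylcholine transporter, which cholinergic sympathetic neurons also express. *Hif1a* itself had a normalized count of 1832 ± 355 in controls and 2208 ± 499 in *Hif1aCKO* (SD, n = 2 and 3), which counts reads of the whole gene and does not measure the loss of exon 2. *Isl1* had 13272 ± 1016 and 8366 ± 510, lower in *Hif1aCKO* without overlap (log2 fold change -0.67 ± 0.10). Its adjusted p was 0.446 by edgeR quasi-likelihood and 0.00021 by DESeq2. Whether the number of intact *Isl1* alleles differed between the groups was not tested. *Prph*, the gene behind the eGFP reporter, had 5214 ± 1046 and 5799 ± 790.

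The channel genes covered a wide range of levels, with *Scn3b*, *Cacng3*, and *Cacng4* at the top and *Cacng1*, with 0 counts, at the bottom. Levels between genes were compared as CPM per kilobase of exon, with library totals scaled by TMM factors, averaged over the 5 libraries. By this level per length, the sodium channel beta subunit *Scn3b* came first at 147 (range 103 to 205), above 97.8% of the protein-coding genes in the table. *Cacng3*, which encodes a member of the gamma subunit family better known as an AMPA receptor auxiliary subunit, was second at 84.0 (77.8 to 92.6). The ranges of these genes did not overlap each other or that of the third, *Cacng4*, a further gamma family gene, at 32.4 (29.1 to 36.6). *Cacnb3*, *Scn3a*, and *Scn9a* followed at 30.1, 23.4, and 18.4, with ranges that overlapped between neighbours. *Cacna2d1* had 12.3 (11.1 to 13.9), separate from *Scn9a* above and from *Cacna1b* below at 5.21 (4.25 to 6.17). From *Cacna1b* downward, every member's range overlapped that of the next. These members span long genes, with a median of 104.7 kb from start to end against 24.8 kb for all protein-coding genes in the table.

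**Figure D1:**
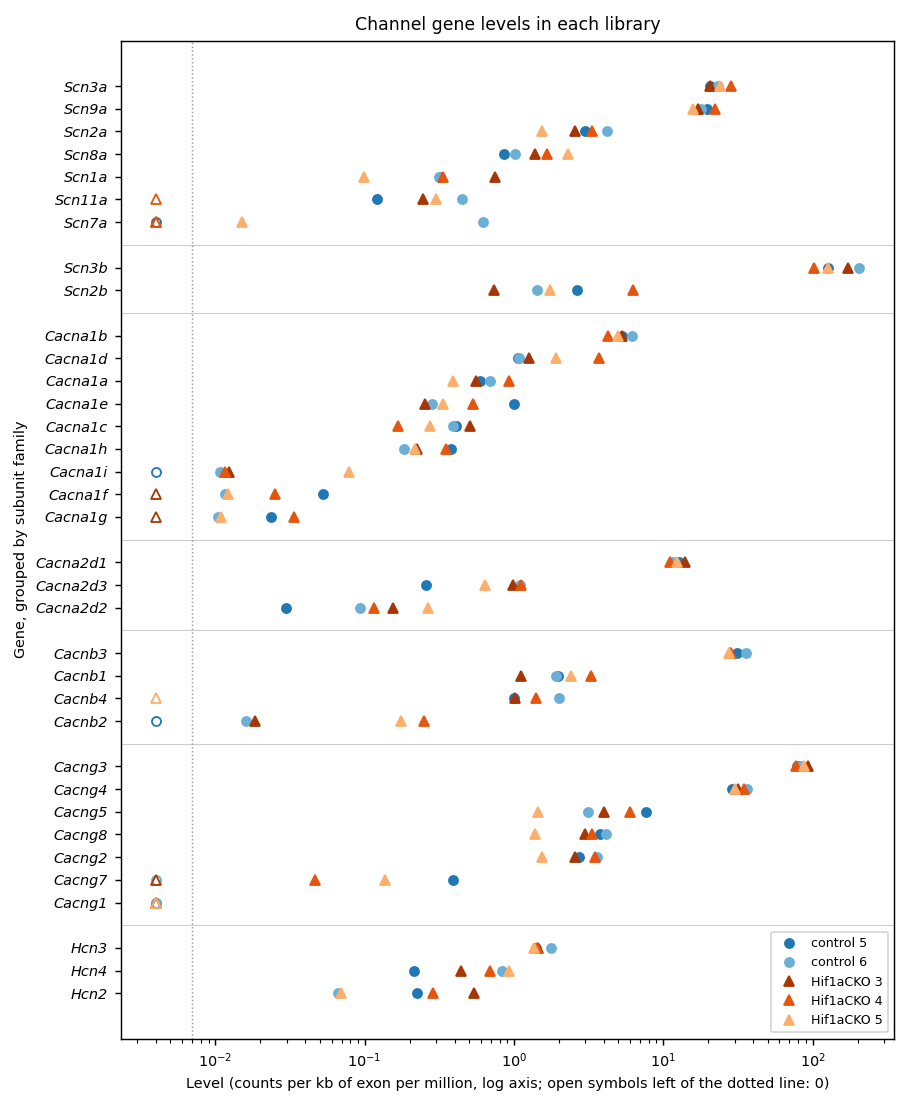
Level of each channel gene reported here in each library, in CPM per kilobase of exon on a log axis, with circles for the 2 control and triangles for the 3 *Hif1aCKO* libraries, and open symbols for a count of 0. *Scn3b* and *Cacng3* lie highest. The symbols of *Scn3b* run from 103 to 205, those of the next genes by level lie closer together, and those of many scarce genes spread widely.

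At the other end, 10 members had a count of 0 in at least 1 library, and *Cacng1*, the gamma subunit of the skeletal muscle calcium channel, had 0 in all 5. A count of 0 allows up to 3 counts in a library. Of the 8 members below the filter, those reported here had counts of 0 to 4 (*Cacna1f*), 0 to 3 (*Cacna1g*), 0 to 7 (*Cacna1i*), 0 to 8 (*Cacng7*), 2 to 14 (*Hcn2*), and 0 to 43 (*Scn7a*), beside *Cacng1*. *Scn7a*, a sodium channel relative also found in glia, had 43 counts in control replicate 6, 1 in *Hif1aCKO* replicate 5, and 0 elsewhere. The T-type pore genes *Cacna1g* and *Cacna1i* had at most 3 and 7 counts, whereas the third T-type gene, *Cacna1h*, had 17 to 31.

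No member was called different between genotypes. The study's thresholds were used for calls, namely an adjusted p under 0.05, a log2 fold change of more than 0.3 in either direction, and at least 50 normalized counts on average. The study applied them to DESeq2 results and reported differentially expressed genes, whereas the main test here was that of edgeR. By the quasi-likelihood test of edgeR with Benjamini-Hochberg adjustment, 0 of the 28 members tested and 0 of all 15032 genes tested (0%) were called, and members' adjusted p-values ranged from 0.621 to 0.991. At an unadjusted p under 0.05 there were 1153 genes (7.67%). In the higher direction this was 3 members of 28 (10.7%), *Scn8a*, *Cacna1d*, and *Cacnb2*, against 3.83% of all genes tested. In the lower direction it was 0 members against 3.85% of all genes. *Cacnb2* passed the filter through *Hif1aCKO* libraries alone, where it was high, and with at least 10 counts required in every library, 2 of 24 members remained at that level. DESeq2, the study's method, called 60 genes here and edgeR's likelihood ratio test 40, with 0 members in either list. The DESeq2 test had 1425 genes and 4 members at an unadjusted p under 0.05, the fourth being *Scn7a*, whose counts came almost entirely from control replicate 6.

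The fitted log2 fold change was above 0 for 12 members and below 0 for 16. Their median was -0.04, beside 0.01 over all genes tested, and the median size of the change was 0.33, beside 0.29. The libraries of the genotypes did not overlap in 4 members in the higher direction (14.3%), *Scn8a*, *Cacna1d*, *Cacnb2*, and *Cacna2d2*, where 12.8% of all genes tested did so. In the lower direction there were 2 such members (7.14%), *Cacnb3* and *Cacng8*, against 12.9% of all genes. For *Cacnb2* the lack of overlap rests on scaling alone, since control replicate 6 and *Hif1aCKO* replicate 3 had 2 raw counts each. *Cacnb2* and *Cacna2d2* passed the filter through the *Hif1aCKO* libraries alone, so the higher count is in part set by the filter and is no basis for a comparison with the lower one. The sums of sympathetic neuron markers and of G2/M genes differed between the same libraries without overlap, and their part in any difference of a channel gene was not tested. In these sorted pools, fewer cells of one kind and less RNA per cell cannot be told apart.

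**Figure D2:**
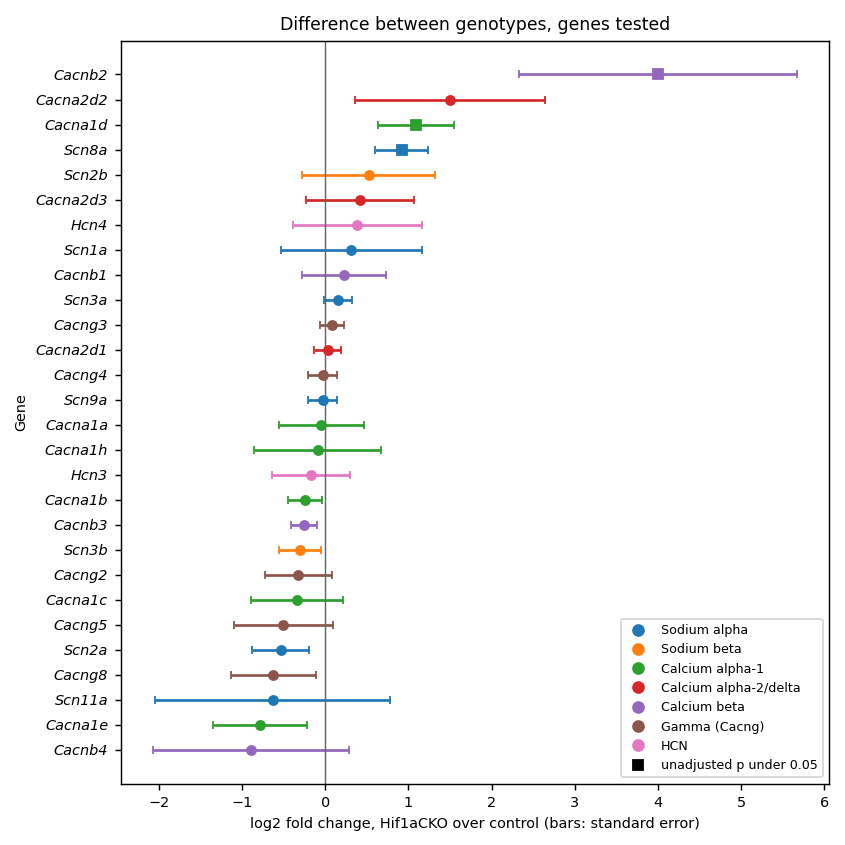
Fitted log2 fold change of the 28 tested genes, *Hif1aCKO* over control, with bars for 1 standard error, colours for subunit families, and squares for an unadjusted p under 0.05. The squares are *Cacnb2*, *Cacna1d*, and *Scn8a*, all to the right of 0, and the scarce genes have the widest bars.

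The sodium channel alpha genes were led by *Scn3a*, the embryonic brain-type channel, and *Scn9a*, a channel of peripheral sensory and sympathetic neurons. Normalized counts of *Scn3a* were 2242 and 2534 in controls 5 and 6, and 2254, 3113, and 2616 in *Hif1aCKO* 3, 4, and 5. Those of *Scn9a* were 2177 and 1998 in the controls and 1906, 2463, and 1757 in *Hif1aCKO*. In both genes *Hif1aCKO* replicate 4 was highest and the genotypes overlapped, with log2 fold changes of 0.16 ± 0.17 and -0.03 ± 0.18 (SE). Together they made up most of the alpha subunit level per length, with *Scn3a* at 46.4% to 54.6% and *Scn9a* at 35.8% to 43.9% of the family's sum.

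*Scn8a*, the channel that comes to dominate axon initial segments and nodes in mature neurons, was the sodium channel gene with the largest difference relative to its error. Its normalized counts were 118.5 and 140.7 in the controls and 190.5, 229, and 316 in *Hif1aCKO*. Every *Hif1aCKO* library lay above both controls, and replicate 5 was highest. The means were 129.6 ± 15.7 (SD, n = 2) and 245 ± 64.1 (SD, n = 3). The log2 fold change was 0.92 ± 0.32 (SE), with an adjusted p of 0.621 by the quasi-likelihood test of edgeR with Benjamini-Hochberg adjustment. It ranged from 0.70 to 1.07 when 1 library was left out, and was 1.07 without *Hif1aCKO* replicate 3. The unadjusted p stayed under 0.05 without *Hif1aCKO* replicate 3 or 4 and not without any of the other libraries. As a share of the alpha subunit level, *Scn8a* was 1.94% and 2.13% in the controls and 3.24%, 2.95%, and 5.20% in *Hif1aCKO*.

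*Scn2a*, the channel of immature axons in the brain, had 335 and 466 normalized counts in the controls and 287, 371, and 171 in *Hif1aCKO*. The genotypes overlapped in normalized counts, and the log2 fold change was -0.54 ± 0.34 (adjusted p = 0.735, edgeR quasi-likelihood). Its share of the alpha subunit level was 6.77% and 8.74% in the controls and 6.03%, 5.91%, and 3.49% in *Hif1aCKO*, so that by share the groups did not overlap. The remaining alpha genes were scarce. *Scn1a* had 9.71 to 72.8 normalized counts and *Scn11a*, a tetrodotoxin-resistant channel of nociceptors, had 0 to 23.1, each with overlapping groups. On the genome (GRCm38, GENCODE M21), 5 of these genes lie on the same stretch of chromosome 2, from *Scn3a* (chr2:65457118-65567627) and *Scn2a* (chr2:65620771-65767447) through *Scn1a* (chr2:66270778-66440840) and *Scn9a* (chr2:66480080-66634962) to *Scn7a* (chr2:66673425-66784914). Within this cluster the level per length ran from 23.4 for *Scn3a* to 0.127 for *Scn7a*.

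Of the beta subunits, *Scn3b* had 6052 and 9807 normalized counts in the controls and 8302, 4911, and 6069 in *Hif1aCKO*. The controls differed from each other by more than their mean differed from that of *Hif1aCKO*, with a log2 fold change of -0.30 ± 0.25. This became 0.08 without control replicate 6, -0.61 without control replicate 5, and -0.53 without *Hif1aCKO* replicate 3. *Scn2b*, whose product is linked covalently to an alpha subunit, had 108.1 and 58.3 in the controls and 30.0, 257, and 70.9 in *Hif1aCKO*. Here *Hif1aCKO* held both the lowest and the highest library, and the log2 fold change of 0.52 ± 0.80 turned to -0.72 without *Hif1aCKO* replicate 4.

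**Figure D3:**
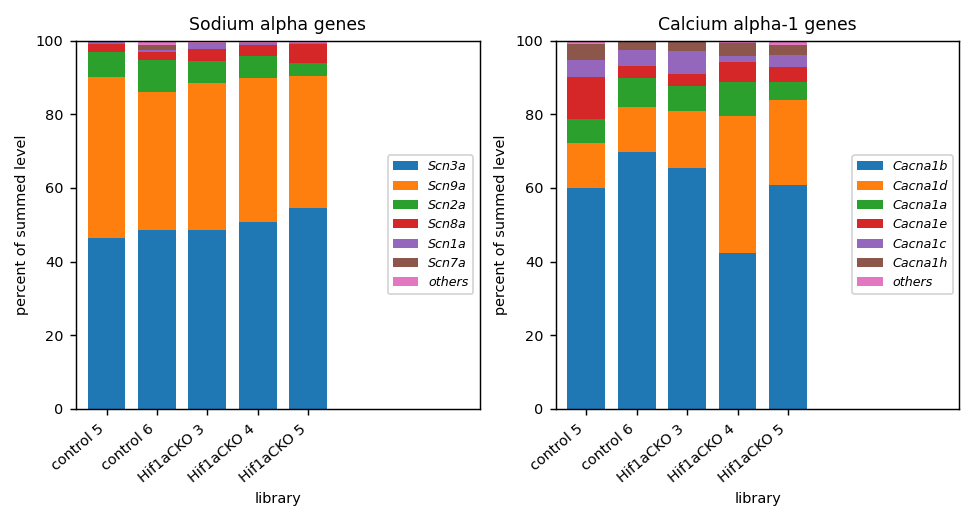
Share of each gene in the summed level per length of its family, in percent, for sodium alpha genes (left) and calcium alpha-1 genes (right), with 1 stacked bar per library and genes under 1% of every bar joined as others. *Scn3a* and *Scn9a* fill most of every bar on the left, and *Cacna1b* holds 42.5% to 69.9% on the right, with its smallest share in *Hif1aCKO* replicate 4, where *Cacna1d* is largest.

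Among the pore genes of calcium channels, *Cacna1b*, the N-type channel, was the most abundant per length. It had 462 and 537 normalized counts in the controls and 463, 369.5, and 435 in *Hif1aCKO*. Control replicate 5 and *Hif1aCKO* replicate 3 were nearly level, so the groups overlapped, and the log2 fold change was -0.24 ± 0.20 (adjusted p = 0.812, edgeR quasi-likelihood), between -0.35 and -0.13 with 1 library left out.

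*Cacna1d*, an L-type channel that opens at low voltages, had 117.5 and 119.4 normalized counts in the controls and 139.1, 410.3, and 209.7 in *Hif1aCKO*. All *Hif1aCKO* libraries lay above the controls, replicate 3 by little and replicate 4 by the most. The log2 fold change was 1.10 ± 0.46 (SE), with an adjusted p of 0.637 by the edgeR quasi-likelihood test. It was 1.39 without *Hif1aCKO* replicate 3 and 0.56 without *Hif1aCKO* replicate 4, and the unadjusted p stayed under 0.05 only without replicate 3 of *Hif1aCKO*. The share of *Cacna1d* in the alpha-1 level was 12.1% and 12.2% in the controls and 15.5%, 37.1%, and 23.1% in *Hif1aCKO*. Of the *Cacna1d* exon sequence, 4.67% is shared with *Chdh* on the opposite strand. *Chdh*, choline dehydrogenase, had 23.9 and 20.4 normalized counts in the controls and 40.7, 84.7, and 30.1 in *Hif1aCKO*, with its peak in the same library. Counting was run with the default parameters of Rsubread, which do not use strand and assign a read that overlaps exons of more than 1 gene to neither, so reads within the shared bases were left out for both genes.

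The other tested pore genes were less abundant and their groups overlapped. *Cacna1a*, the P/Q-type channel, had 38.8 to 92.6 normalized counts, *Cacna1c*, the L-type channel of heart and vessel muscle, 30.9 to 94.2, and *Cacna1h* 15.7 to 32.2. *Cacna1e*, the R-type channel, had 221 in control replicate 5 and 62.0 in control replicate 6, against 55.6, 116.5, and 73.8 in *Hif1aCKO*. Its log2 fold change of -0.79 ± 0.57 rested on control replicate 5, and was 0.40 without it. The summed alpha-1 level per length was 8.83 and 8.84 in the controls and 8.14 to 10.01 in *Hif1aCKO*, so the family total overlapped between genotypes.

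The auxiliary subunits were each dominated by 1 gene. *Cacna2d1* made up 90.0% to 97.8% of the alpha-2/delta level, with 1379 and 1263 normalized counts in the controls and 1509, 1203, and 1333 in *Hif1aCKO* (log2 fold change 0.03 ± 0.16). *Cacna2d3* had 19.8 and 84.2 in the controls and 74.9, 85.7, and 48.6 in *Hif1aCKO*, and its log2 fold change of 0.42 ± 0.65 became -0.28 without control replicate 5. *Cacna2d2* was scarce, with 2 and 7 counts in the controls and 10, 8, and 19 in *Hif1aCKO*, which did not overlap (log2 fold change 1.5 ± 1.14, adjusted p = 0.783, edgeR quasi-likelihood, and 0.92 to 2.50 with 1 library left out).

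*Cacnb3* made up 85.1% to 92.8% of the beta subunit level. It had 1091 and 1247 normalized counts in the controls and 975, 990.0, and 973 in *Hif1aCKO*. The *Hif1aCKO* libraries lay within a narrow band below both controls, with means of 1169 ± 110.5 (SD, n = 2) and 979 ± 9.38 (SD, n = 3). The log2 fold change was -0.25 ± 0.15 (SE), with an adjusted p of 0.720 by the edgeR quasi-likelihood test, and stayed between -0.35 and -0.16 with 1 library left out. The summed beta level per length followed, at 34.1 and 39.5 in the controls and 29.9 to 33.2 in *Hif1aCKO*, again without overlap. *Cacnb1* had 78.0 and 75.9 in the controls and 43.9, 130.5, and 95.2 in *Hif1aCKO*, with overlapping groups.

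*Cacnb2*, a beta subunit prominent in heart, was close to absent from the controls. Its raw counts were 0 and 2 in the controls and 2, 29, and 21 in *Hif1aCKO* replicates 3, 4, and 5. *Hif1aCKO* replicate 3 was at the level of control replicate 6, and replicates 4 and 5 were high. Over the pooled counts, scaled for library size, the ratio was 17.9 with a 95% interval of 4.71 to 152 that covers counting error only. The fitted log2 fold change was 4.00 ± 1.67 (SE), which depends on the prior count, with an adjusted p of 0.637 by the edgeR quasi-likelihood test. It was 4.52 without *Hif1aCKO* replicate 3, 3.13 without control replicate 5, and 7.08 without control replicate 6, which leaves a control with 0 counts. The unadjusted p of the edgeR quasi-likelihood test stayed under 0.05 without *Hif1aCKO* replicate 3. Without *Hif1aCKO* replicate 4 or 5 the gene fell below the filter. Of the 4 listed cardiac muscle markers in the table, *Tnni3* had 0 counts in all libraries. *Myl7*, the atrial myosin light chain, had 0 and 2 counts in the controls and 2, 8, and 9 in *Hif1aCKO*. Its high libraries were the same as those of *Cacnb2*. The other listed markers did not share this pattern. *Nppa* had 1 and 5 counts in the controls and 1, 5, and 0 in *Hif1aCKO*, and *Tnnt2* had 0 and 0 against 4, 1, and 0. The summed cardiac level did not overlap between genotypes, and its part in the *Cacnb2* values was not tested. *Cacnb4* had 79.0 and 156 normalized counts in the controls and 80.3, 110.5, and 0 in *Hif1aCKO*. Of its exon sequence, 16% is also covered by the opposite-strand transcript *A430018G15Rik*, which had 30 and 67 counts in the controls, 21 and 30 in *Hif1aCKO* replicates 3 and 4, and likewise 0 in replicate 5.

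**Figure D4:**
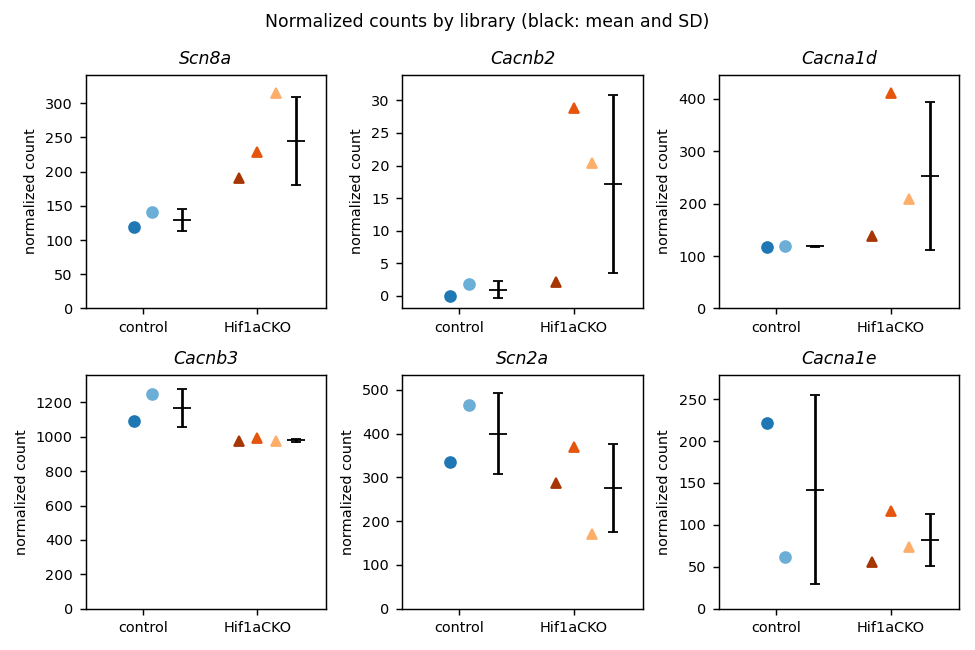
Normalized counts in each library for the 6 tested genes with the lowest p, with circles for control, triangles for *Hif1aCKO*, and black bars for the mean and SD. The triangles lie above the circles for *Scn8a* and *Cacna1d* and below them for *Cacnb3*, and the symbols of *Scn2a* and *Cacna1e* overlap. For *Cacnb2* the lowest triangle (2.14) is nearly level with the upper circle (1.85), from 2 raw counts each.

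HIF-1 binds DNA at a short core that reads ACGTG or GCGTG, so the RefSeq promoters of the members (GRCm38.p6, 250 bases before to 50 after a start) were searched for both on either strand. A promoter was found for 27 members, 38 promoters in all, and 15 of them (39.5%) held a core, beside 43.8% of all 32851 promoters of that length. The median share of G and C bases was 59.5% in the member promoters and 52.7% in all promoters. The shares with a core were not adjusted for this. The upstream 250 bases are shown for the promoters with a core of *Scn8a* and *Cacna1d*, which had the smallest errors among the 3 members at an unadjusted p under 0.05, with the core in capitals. For *Scn8a* these are chr15:100870395-100870644 and chr15:100936021-100936270 on the plus strand, and for *Cacna1d* chr14:30353487-30353736 on the minus strand.
Scn8a, first start: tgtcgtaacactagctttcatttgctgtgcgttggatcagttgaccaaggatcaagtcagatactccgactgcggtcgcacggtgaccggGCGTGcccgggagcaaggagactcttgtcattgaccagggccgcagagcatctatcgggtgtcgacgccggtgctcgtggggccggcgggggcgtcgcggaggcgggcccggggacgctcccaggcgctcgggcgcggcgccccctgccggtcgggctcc
Scn8a, second start: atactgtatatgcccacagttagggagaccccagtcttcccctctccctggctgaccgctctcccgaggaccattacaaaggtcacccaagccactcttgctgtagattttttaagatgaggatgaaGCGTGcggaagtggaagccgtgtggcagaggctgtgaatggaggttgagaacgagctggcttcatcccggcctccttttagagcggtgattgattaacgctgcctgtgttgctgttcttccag
Cacna1d: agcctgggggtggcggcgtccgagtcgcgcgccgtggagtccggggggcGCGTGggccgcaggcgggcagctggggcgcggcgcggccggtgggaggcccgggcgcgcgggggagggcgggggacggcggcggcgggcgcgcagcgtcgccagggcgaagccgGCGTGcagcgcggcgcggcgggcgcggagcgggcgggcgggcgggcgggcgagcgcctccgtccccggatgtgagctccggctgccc
The cores begin at -160 and -123 from the *Scn8a* starts and at -201 and -87 from the *Cacna1d* start. The other RefSeq promoter of *Cacna1d* held none, and of the *Cacnb2* promoters 1 held a core at -220. These matches describe the letters of the windows, and binding was not measured.

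In the gamma family, *Cacng3* had 1921 and 2019 normalized counts in the controls and 2250, 1889, and 2128 in *Hif1aCKO*, and *Cacng4* had 909 and 1143 in the controls and 985, 1089, and 942 in *Hif1aCKO*. Both were steady between libraries, with log2 fold changes of 0.09 ± 0.14 and -0.03 ± 0.17, and *Cacng3* alone was 62.0% to 71.7% of the family's level. *Cacng8*, an AMPA receptor auxiliary subunit, had 76.9 and 85.2 in the controls and 61.0, 68.7, and 28.2 in *Hif1aCKO*, lower without overlap (log2 fold change -0.62 ± 0.51, adjusted p = 0.808, edgeR quasi-likelihood). *Cacng2*, known as stargazin, had 73.8 to 174 and *Cacng5* 48.6 to 258, both with overlapping groups and with their lowest library in *Hif1aCKO* replicate 5.

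By level per length, the HCN genes *Hcn3*, *Hcn4*, and *Hcn2* ranked 16, 21, and 26 of the 36 members. *Hcn3* had 50.9 and 64.8 normalized counts in the controls and 52.4, 51.8, and 49.5 in *Hif1aCKO*, and was 57.8% to 76.2% of the summed HCN level. Its log2 fold change was -0.18 ± 0.47, and 17.1% of its exon sequence also belongs to *Pklr* on the opposite strand, a gene with 0 to 17 counts. *Hcn4*, the main channel of the cardiac pacemaker, had 11.4 and 44.4 in the controls and 23.5, 36.9, and 49.5 in *Hif1aCKO*. The controls lay near both ends of the range, and the log2 fold change of 0.39 ± 0.77 became -0.28 without control replicate 5.

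The spread between libraries of one genotype varied widely among the genes. On the log2 scale, the SD within genotype was 0.08 for *Cacnb3*, 0.11 for *Cacng3*, and 0.16 for *Cacna1b*, against 0.04, 0.03, and 0.07 from counting error alone. It was 3.13 for *Cacnb4*, 1.98 for *Scn11a*, and 1.31 for *Scn2b*, against 0.16, 0.42, and 0.14 from counting. *Scn3b*, the gene with the highest level, had 0.42 against 0.017 from counting. The SD exceeded the counting value for all tested members but *Hcn3*. Among scarce genes, the excess was small for *Cacna1h* (0.50 against 0.30) and *Cacna2d2* (0.70 against 0.48). It was larger for *Cacnb2* (1.56 against 0.44) and *Hcn4* (0.88 against 0.25). The excess was not tested.

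**Figure D5:**
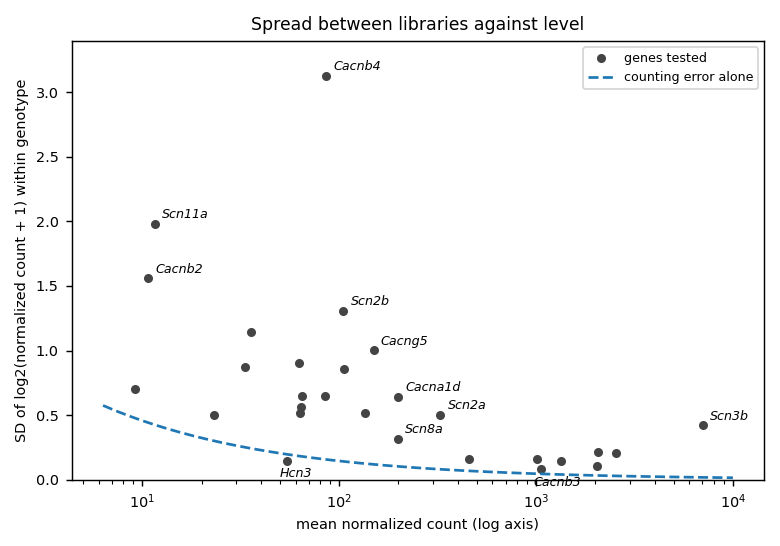
SD of the log2 normalized count within genotype against the mean normalized count on a log axis, 1 point per tested gene, with a dashed line for the SD that counting error alone gives. All points but *Hcn3* lie above the line, and *Cacnb4*, with 0 counts in 1 library, lies highest.

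Partner genes of the channels were read from the same fit. Of 11 listed genes that anchor or modulate sodium channels, 10 were tested, 5 above and 5 below 0, with a median log2 fold change of -0.12. No partner was called, and 3 had an unadjusted p under 0.05, all lower in *Hif1aCKO* without overlap, where the shares of all genes tested were 3.85% and 12.9%. *Fgf14*, an intracellular modulator of sodium channels at the axon initial segment, had 53.0 and 167 normalized counts in the controls and 21.4, 27.9, and 9.71 in *Hif1aCKO* (log2 fold change -2.48 ± 0.67, adjusted p = 0.599, edgeR quasi-likelihood). This ranged from -3.08 to -1.43 with 1 library left out, the smallest size being without control replicate 6. *Nrcam* and *Cntn1*, cell adhesion molecules of the axon, had log2 fold changes of -0.61 ± 0.18 and -1.31 ± 0.54. The anchoring ankyrin *Ank3* had 0.13 ± 0.23. Of 12 calcium channel partners tested, 7 were above and 5 below 0, with a median of 0.01. *Rims2*, which tethers calcium channels at release sites, had 338 and 368 in the controls and 394, 670.3, and 544 in *Hif1aCKO* (log2 fold change 0.60 ± 0.26), and the adaptor *Stac2* had 15 and 28 counts in the controls and 4, 0, and 3 in *Hif1aCKO* (log2 fold change -3.06 ± 1.28), having passed the filter through the controls alone, where it was high. The HCN partner *Pex5l* was below the filter. In the sodium leak channel complex, which sets resting excitability, 2 of 5 genes were above and 3 below 0, with a median of -0.35. Its pore gene *Nalcn* had 289 and 261 normalized counts in the controls and 105.9, 179, and 96.1 in *Hif1aCKO*, lower without overlap (log2 fold change -1.11 ± 0.34, adjusted p = 0.599, edgeR quasi-likelihood). The companion gene *Unc79* was higher without overlap at 0.33 ± 0.23, and *Unc80* lower at -0.35 ± 0.26.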

How the data were processed

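The deposited table held raw counts per gene for 5 bulk RNA-seq libraries, which the authors made from reads trimmed with cutadapt (version 1.18) and Trimmomatic, cleared of ribosomal RNA with Bowtie (version 1.2.2) and SortMeRNA, mapped to GRCm38 with STAR (version 2.7.0c), and counted with Rsubread at its default parameters without multi-mapping reads. These defaults do not use strand and leave out reads that overlap more than 1 gene. Reads common to near-identical paralogs were therefore not counted. Differential expression was tested on all 15032 genes that passed filterByExpr in R (version 4.3.3) by edgeR (version 4.0.16), using TMM normalization, the quasi-likelihood test, and Benjamini-Hochberg adjustment. Normalized counts were divided by the library total times the TMM factor (0.974 to 1.03) and scaled to the mean effective size. Exon lengths came from the union of exons in GENCODE M21. DESeq2 (version 1.42.0), limma-voom (version 3.58.1), other scalings and filters, and leaving out each library were alternatives. Scripts were tested on simulated data. Plots were made with matplotlib (version 3.10.9) in Python (version 3.11.15). With 2 libraries against 3, the smallest exact permutation p for a single gene is 0.1.

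The members and lists were chosen with earlier results of these data known. The rule for full values took the 2 genes of each subunit family with the largest level per length and each member with an unadjusted p under 0.05. Other members named with values were chosen after their values were seen. Genes of the lists that were not in the table were not analysed here, and 1 member below the filter is not reported here.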

Additional observations from a re-analysis of the deposited data

How the results depend on the processing

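No member was called under any alternative run. The count of all genes called was 0 by the edgeR quasi-likelihood test, 60 by DESeq2, 40 by the likelihood ratio test, and 0 to 4 with 1 library left out, with 4 without control replicate 5. Members at an unadjusted p under 0.05 numbered 3 in the main run, 4 by DESeq2 and with no filter on low counts, and 1, *Scn8a*, by limma-voom. With 1 *Hif1aCKO* library left out there were 0 to 3, with 0 without replicate 5, and not always the same genes. Without *Hif1aCKO* replicate 4 there were 2, among them *Scn8a* but neither *Cacna1d* nor *Cacnb2*. The genes at this level also changed with a control library left out. With 1 control library left, its spread was assumed to be like that of the other libraries. *Cacnb2* fell below the filter without *Hif1aCKO* replicate 4 or 5 and with at least 10 counts required in every library, and has no value there.

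Under upper-quartile scaling the log2 fold changes of *Cacng4* and *Scn9a* turned to 0.0070 and 0.0050. With 1 library left out, log2 fold changes that changed sign ranged from -0.19 to 0.14 for *Cacng4*, -0.19 to 0.067 for *Scn9a*, -0.059 to 0.10 for *Cacna2d1*, -0.28 to 1.81 for *Cacna2d3*, -0.28 to 1.66 for *Hcn4*, -0.34 to 0.0034 for *Hcn3*, -0.61 to 0.082 for *Scn3b*, -0.15 to 0.55 for *Cacnb1*, -0.72 to 1.03 for *Scn2b*, -0.45 to 0.21 for *Cacna1a*, -1.44 to 0.40 for *Cacna1e*, -0.52 to 0.51 for *Cacna1h*, -1.02 to 0.29 for *Cacng5*, -0.53 to 0.77 for *Scn1a*, and -1.28 to 0.59 for *Scn11a*. The cause was not tested. *Scn8a*, *Cacna1d*, *Cacnb3*, *Cacna1b*, *Scn3a*, *Cacng3*, and *Cacnb2* kept their direction under every alternative that gave a value. With the longest transcript as the length, 9 of the 10 genes with the highest level per length were the same. No paired analysis was possible because the groups share only replicate number 5. Groups of 2 and 3 libraries, 100 cells each, limit every comparison.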
